A study of Mus musculus with 15 samples.

Results

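The transcripts of amino acid transporters were followed across knockdowns of large ribosomal subunit proteins in the mouse embryonic stem cell line E14. The 9 genes were Slc3a2, Slc7a5, Slc7a11, Slc7a1, Slc7a3, Slc1a4, Slc1a5, Slc6a9 and Slc38a2, taken by symbol from tables of 24819 genes, and all 9 were found in both tables. Cells received an siRNA against Rpl11 (siRpl11), Rpl14 (siRpl14), Rpl18 (siRpl18) or Rpl23 (siRpl23), or a non-targeting siRNA (siNT). Each group had 3 libraries, labelled 48 h in the sample titles, whereas the treatment protocol gives a harvest after 3 days of knockdown. Cells of every group grew on gelatin in serum, leukemia inhibitory factor, glutamine and added non-essential amino acids, and all were transfected with DharmaFECT. The study profiled transcripts after knockdown of each factor, and the comparisons below ask how the transporter genes differed from siNT and between knockdowns.

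Levels are given as FPKM (fragments scaled to transcript length and library total), so levels of different genes are compared per length. Replicates 1 and 2 of all groups shared 1 table and entered the tests (n = 2 per group). The third libraries came in a separately normalized table and are given beside them, with no test. Fold changes are differences of log2(FPKM + 1) ± SE, knockdown minus siNT unless another pair is named, with limma's Benjamini-Hochberg adjusted p over the 12249 genes that passed a filter of 1 FPKM in at least 2 libraries. All 9 transporter genes passed it. A gene was called at an adjusted p under 0.05. Nothing in the labels says whether replicates came from separate cultures, and the p-values rest on a spread that could be purely technical. All 4 knockdowns were set against the same siNT libraries.

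The whole tables gave the following setting. The targeted gene stood at 24.0%, 51.6%, 32.6% and 36.3% of its siNT level in siRpl11, siRpl14, siRpl18 and siRpl23, in that order. Absolute depth is unknown. The step of 1 read in low values gave approximate depths of 0.695 to 1.40 relative to the first siNT library, and of 1.00 to 1.31 in the second table. These rest on the commonest ratio of low values between libraries, which held a share of only 0.018 to 0.072 of the genes used. All 10 embryonic stem cell markers chosen for this check were at 24.9 FPKM or more in every library, and most were called in every knockdown. In siRpl11 6 of them were called lower and 3 higher, and in siRpl14, siRpl18 and siRpl23 8 were lower and 1 higher each. Over all genes 43.6%, 29.5%, 34.7% and 30.8% were called lower and 27.3%, 33.3%, 32.8% and 34.9% higher in that order. The median log2 fold changes of the markers were -0.76, -0.69, -0.54 and -0.60, beside -0.11, 0.02, -0.02 and 0.02 over all genes. The part of the marker shift in the transporter results was not tested. Of 10 fibroblast and feeder markers 6 stayed under 0.1 FPKM in all 15 libraries, and Lum and Dcn were listed at 0 throughout. The summed fibroblast list was 4.67 to 6.17 FPKM in siRpl11, 9.60 to 9.76 in siRpl14, 8.76 to 10.5 in siRpl18 and 9.85 to 9.89 in siRpl23, against 17.3 to 17.4 in siNT. Most of that sum was Thy1, at 3.68 to 18.9 FPKM over all libraries, and its part in the results was not tested. In bulk RNA, fewer cells of a type and less RNA per cell cannot be told apart.

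Amino acid transporters of the plasma membrane belong to several solute carrier families. Slc3a2 encodes a heavy chain with which light chains of the Slc7 family pair to reach the cell surface, among them the leucine and large neutral amino acid exchanger Slc7a5 and the cystine-glutamate exchanger Slc7a11. Slc7a1 and Slc7a3 carry arginine and lysine, Slc1a4 and Slc1a5 exchange small neutral amino acids, Slc6a9 takes up glycine with sodium, and Slc38a2 takes up small neutral amino acids with sodium. Several of these genes are known targets of ATF4, a transcription factor of the amino acid and endoplasmic reticulum stress response. ATF4 binds DNA together with C/EBP family partners at composite elements, and transporters such as Slc7a5 and Slc1a5 are also known for supplying the amino acids that mTORC1 responds to.

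Promoters are shown because the transporter genes include known ATF4 targets that moved in different directions here. RefSeq promoter sequences on build GRCm38.p6 (250 bases before to 50 after each start, 300 in all) were matched by symbol for 6 of the 9 genes. Slc7a5, Slc7a3 and Slc1a5 had no such window and were not searched. The letters TGATGNAA, the core of the composite element, were searched on both strands. They were found in the promoters of Slc7a11 and Slc1a4, and in no window of Slc7a1, Slc6a9 or Slc38a2. The Slc3a2 window also lacked them, but its bases after the start matched no Slc3a2 transcript of GENCODE M21, so that nothing is read from it. Over all 32851 promoter windows 3.97% held the letters, and 0.07% held them 2 times or more. Capitals mark the matches below, where each sequence runs 5′ to 3′ on the gene's strand from 120 bases before the start to 10 after. The matches do not overlap each other, and those of Slc7a11 lay on opposite strands. A match is a description of letters and not a measured binding site, and no match says only that these letters are not in the window.
Slc7a11 (chr3:50443604-50443733, minus strand): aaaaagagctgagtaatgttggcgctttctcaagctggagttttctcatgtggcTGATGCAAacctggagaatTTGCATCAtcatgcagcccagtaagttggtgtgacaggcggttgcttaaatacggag
Slc1a4 (chr11:20332704-20332833, minus strand): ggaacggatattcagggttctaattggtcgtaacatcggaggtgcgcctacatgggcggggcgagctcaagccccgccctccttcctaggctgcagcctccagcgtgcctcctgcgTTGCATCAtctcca
Slc38a2 (chr15:96699719-96699848, minus strand): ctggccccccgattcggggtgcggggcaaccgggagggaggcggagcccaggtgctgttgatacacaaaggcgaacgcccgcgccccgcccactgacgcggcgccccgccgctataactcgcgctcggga
Slc38a2, whose window lacks the letters, is shown because it rose most of the 9 genes. Slc7a1 and Slc6a9, whose windows also lack them, fell in every knockdown. Sequence outside the windows was not searched. The match of Slc1a4 spanned the start itself, from base -4 to base 4, and those of Slc7a11 began at bases -66 and -47.

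The 9 genes did not move as a block. In siRpl11, 6 were called lower and 3 higher, where 43.6% of all genes tested were called lower and 27.3% higher (70.9% either way). In siRpl14, 6 were lower, 1 was higher and 2 were not called, against 29.5% lower and 33.3% higher over all genes (62.8% either way). In siRpl18, 6 were lower, 2 higher and 1 not called, against 34.7% and 32.8% over all genes (67.6% either way). In siRpl23, 6 were lower, 2 higher and 1 not called, against 30.8% and 34.9% over all genes (65.7% either way). The median log2 fold change of the 9 genes was -0.67, -0.52, -0.61 and -0.61 in the same order of knockdowns, beside a median over all genes of -0.11, 0.02, -0.02 and 0.02. In siRpl11 38.5% of all calls were higher, against 50.9% with quantile normalization and also with median-ratio scaling, where the median of all genes was 0.01 in both. Slc7a5, Slc7a1, Slc1a4, Slc1a5 and Slc6a9 were lower and Slc38a2 was higher in all 4 knockdowns. Slc7a3 changed in opposite directions, Slc3a2 rose chiefly in siRpl11, and Slc7a11 was low and moved little. For all 9 genes replicates 1 and 2 of siRpl11 did not overlap those of siNT, where 85.0% of all genes did not. For siRpl14, siRpl18 and siRpl23 the groups did not overlap in 7, 8 and 8 of the 9 genes, against 80.5%, 83.0% and 82.6% of all genes. In the third libraries every called difference of the 9 genes had the same sign (9, 7, 8 and 8 calls in the same order), as did 91.8%, 91%, 90.7% and 88.9% of all called genes. The 9 calls in siRpl11 include Slc7a11, which was at levels too low there for its fold change to be read.

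**Figure D1:**
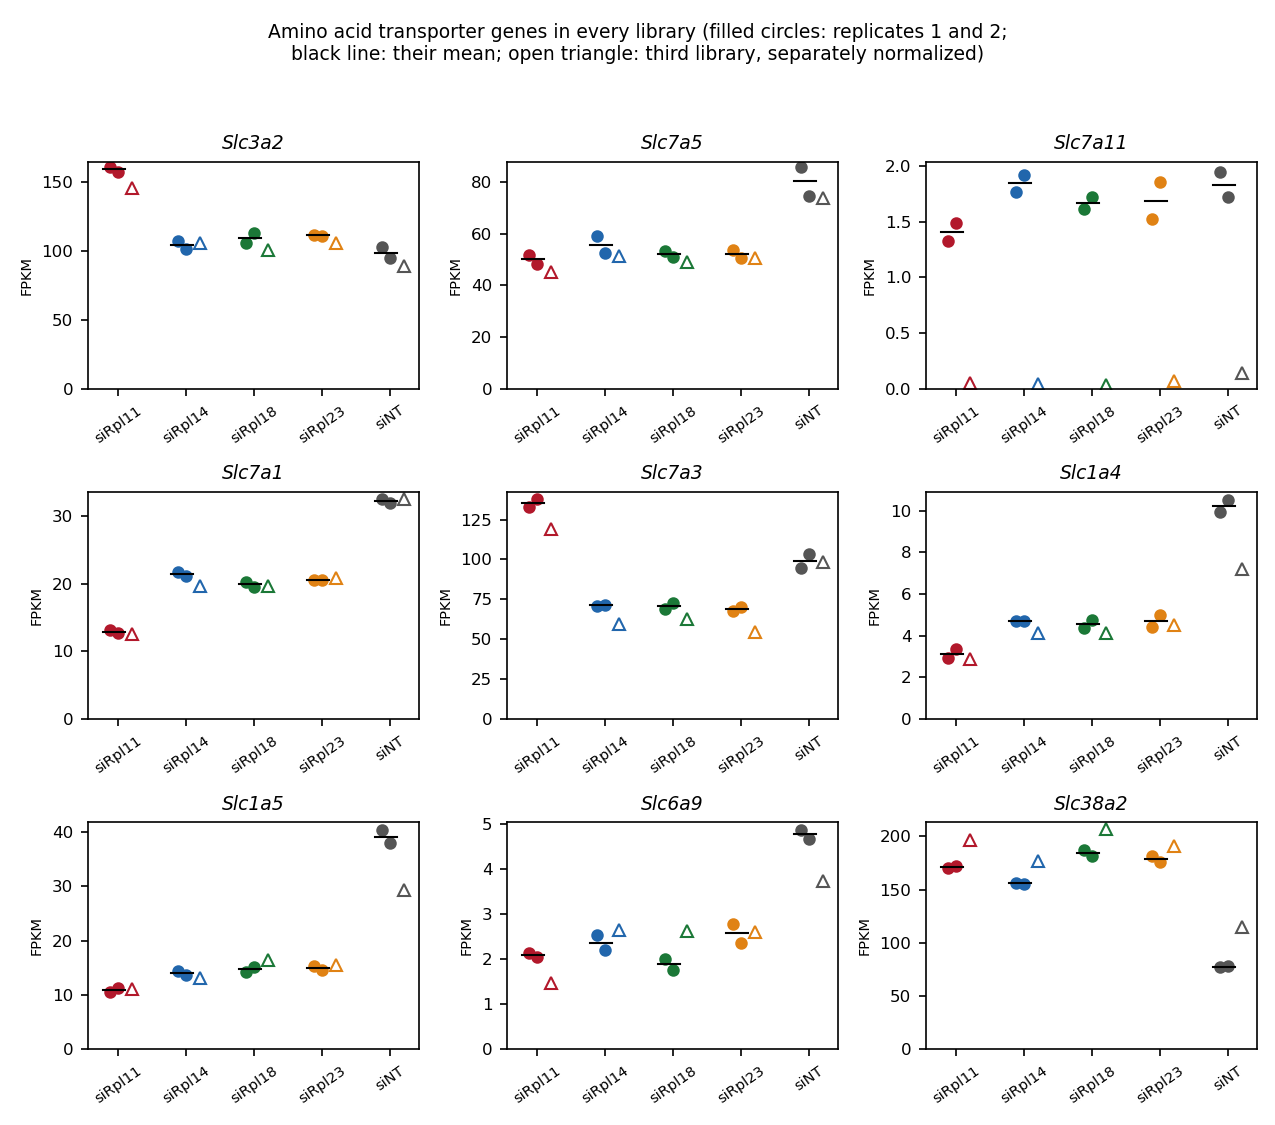
FPKM of the 9 amino acid transporter genes in every library, by group, with replicates 1 and 2 as filled circles, their mean as a line and the third library as an open triangle on its own table's scale. Slc1a5 lay between 10.6 and 16.3 FPKM in every knockdown library and between 29.2 and 40.3 FPKM in siNT, while Slc38a2 was higher in every knockdown than in siNT.

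Slc3a2, the heavy chain, was with Slc7a3 the most abundant of the 9 transcripts in siNT of the first table. It stood at 161 and 158 FPKM in siRpl11, 107 and 102 in siRpl14, 106 and 113 in siRpl18, 112 and 111 in siRpl23, and 103 and 95.3 in siNT. The third libraries gave 146 FPKM in siRpl11, 106 in siRpl14, 101 in siRpl18 and 106 in siRpl23, against 89.4 in siNT. Both tables thus had siRpl11 above all other groups. In the first table siRpl14 overlapped siNT, and in the second, with 1 library per group, siNT was below every knockdown. The rise in siRpl11 was 0.68 ± 0.05 (limma adjusted p = 1.21e-06). Smaller rises were called in siRpl18 (0.15 ± 0.05, adjusted p = 0.0244) and siRpl23 (0.17 ± 0.05, adjusted p = 0.0118). Both of these calls ended without siNT replicate 2 (0.09 in siRpl18 and 0.12 in siRpl23). The siRpl18 call also ended without siRpl18 replicate 2 (0.10) and with only the groups compared, and the siRpl23 call without siRpl23 replicate 1. In siRpl14 the difference was 0.08 ± 0.05 with an interval of -0.03 to 0.19 (adjusted p = 0.197), and the fit of all 15 libraries called it at 0.13. Slc3a2 was higher in siRpl11 than in the mean of the other knockdowns by 0.55 ± 0.04 (adjusted p = 1.53e-06), where 18.4% of all genes were higher and 44.2% lower (62.6% either way).

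Slc7a5, the light chain that exchanges leucine and other large neutral amino acids, fell in every knockdown while its heavy chain did not. It was at 51.9 and 48.1 FPKM in siRpl11, 58.9 and 52.4 in siRpl14, 53.1 and 51.0 in siRpl18, 53.5 and 50.4 in siRpl23, and 85.8 and 74.6 in siNT. No knockdown library reached the lower siNT value, siRpl18 and siRpl23 overlapped every other knockdown, and siRpl11 lay below siRpl14. The falls were -0.67 ± 0.08 in siRpl11 (adjusted p = 2.59e-05), -0.52 ± 0.08 in siRpl14 (adjusted p = 0.000201), -0.61 ± 0.08 in siRpl18 and -0.61 ± 0.08 in siRpl23. In the third libraries Slc7a5 was at 45.3, 51.3, 49.2 and 50.7 FPKM in siRpl11, siRpl14, siRpl18 and siRpl23, against 73.8 in siNT. The difference between siRpl11 and the mean of the other knockdowns was -0.09 ± 0.06, with an interval of -0.23 to 0.05 (adjusted p = 0.240), and the replicate block called it (adjusted p = 0.0392).

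Slc7a11, which imports cystine for glutathione synthesis, was the lowest of the 9 transcripts. In the first table it was at 1.33 and 1.49 FPKM in siRpl11, 1.77 and 1.91 in siRpl14, 1.61 and 1.72 in siRpl18, 1.52 and 1.86 in siRpl23, and 1.94 and 1.72 in siNT. Replicates of siRpl11 lay under both siNT values by a small margin, and siRpl14, siRpl18 and siRpl23 overlapped siNT. The fall in siRpl11 was -0.23 ± 0.09 (adjusted p = 0.0446), close to the threshold. That call ended with no filter, with only the groups compared, with all 15 libraries (-0.20), with median-ratio scaling (-0.15) and without any of 7 single libraries: siNT replicate 1, and both replicates of siRpl11, siRpl14 and siRpl18. Quantile normalization turned it to 0.06. The differences in siRpl14 (0.01, interval -0.20 to 0.21), siRpl18 (-0.09, interval -0.29 to 0.12) and siRpl23 (-0.08, interval -0.28 to 0.13) were not called. The third libraries gave only 0.0479 FPKM in siRpl11, 0.0412 in siRpl14, 0.0324 in siRpl18 and 0.0723 in siRpl23, against 0.146 in siNT. In siNT the level was thus 0.0796 times that of the first table, a gap found in few genes (50 of 11616 genes at 1 FPKM or more in siNT of the first table were lower by 10-fold or more in the second, 0.43%). The tables were normalized separately, and the cause of the gap was not tested. At these levels no fold change within the second table can be read.

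The Slc3a2 heavy chain serves several light chains, so their summed level was set beside it; these 6 genes (Slc7a5, Slc7a6, Slc7a7, Slc7a8, Slc7a10 and Slc7a11) were chosen after values had been seen. Slc7a7, a light chain that exchanges cationic for neutral amino acids, was at 78.3 and 78.7 FPKM in siRpl11, 88.1 and 93.5 in siRpl14, 104 and 106 in siRpl18, 97.9 and 93.9 in siRpl23, and 41.1 and 43.0 in siNT. It was higher in every knockdown library of the first table than in either siNT library there, by 0.88 ± 0.04 in siRpl11, 1.09 ± 0.04 in siRpl14, 1.30 ± 0.04 in siRpl18 and 1.17 ± 0.04 in siRpl23 (adjusted p from 7.26e-09 to 1.24e-07). The third libraries gave smaller rises of 0.37, 0.61, 0.71 and 0.65 in that order, with siNT at 55.5 FPKM. Slc7a6, a close relative of Slc7a7, fell by -0.26 ± 0.05 to -0.49 ± 0.05. Slc7a5 made up 32.8% and 30.9% of the summed light chain FPKM in siRpl11, 33.8% and 30.1% in siRpl14, 29.3% and 27.7% in siRpl18, and 30.4% and 29.7% in siRpl23, against 53.3% and 48.8% in siNT. The third libraries gave 31.1% to 33.7% in the knockdowns, against 48.5% in siNT. The sum itself was 158 and 156 FPKM in siRpl11, against 161 and 153 in siNT, and 169 to 184 in the other knockdowns. Light chain transcripts per Slc3a2 transcript came to 0.981 and 0.987 in siRpl11, 1.62 and 1.71 in siRpl14, 1.71 and 1.63 in siRpl18, 1.58 and 1.52 in siRpl23, and 1.56 and 1.60 in siNT. Only siRpl11 stood apart in that ratio, also in the third libraries (0.921, against 1.70 in siNT and 1.44 to 1.57 in the other knockdowns); the ratio was not tested.

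**Figure D2:**
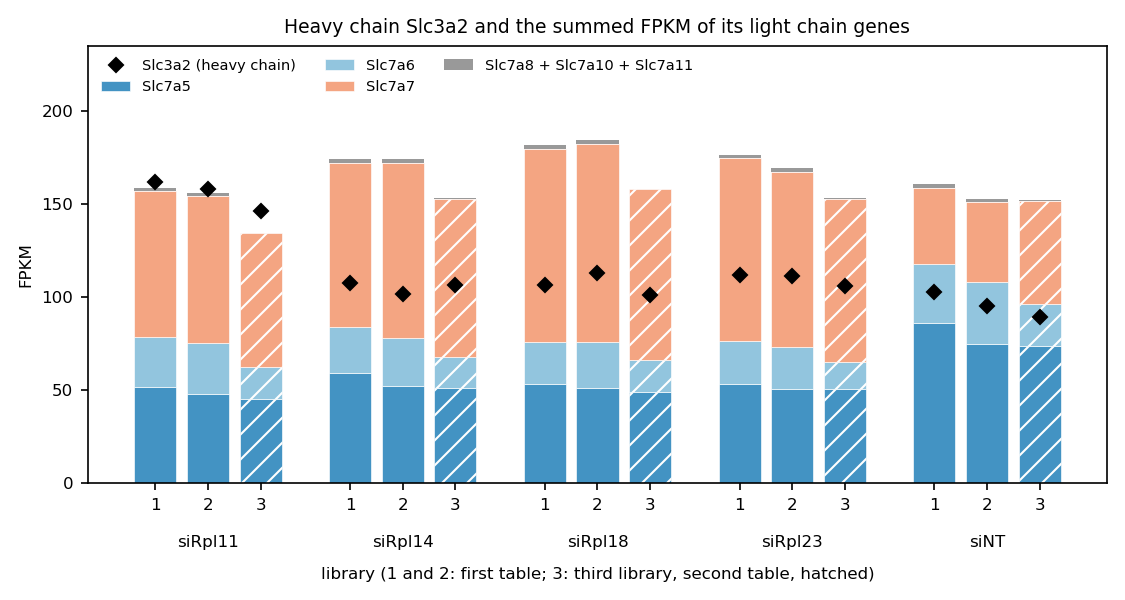
Stacked bars give the FPKM of the Slc3a2 light chain genes in each library and black diamonds the FPKM of Slc3a2; libraries 1 and 2 are from the first table and hatched bars are the third libraries. The Slc7a5 segment is smaller and the Slc7a7 segment larger in all knockdowns than in siNT, and the diamond reaches the top of the bar in siRpl11 only.

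The arginine and lysine transporters Slc7a1 and Slc7a3 differed from each other in siRpl11. Slc7a1, the widely expressed member, was at 13.1 and 12.7 FPKM in siRpl11, 21.7 and 21.1 in siRpl14, 20.3 and 19.6 in siRpl18, 20.6 and 20.6 in siRpl23, and 32.5 and 32.0 in siNT. The third libraries stood at 12.6, 19.7, 19.7 and 20.8 FPKM in the same order of knockdowns, against 32.6 in siNT. Values fell into 3 steps without overlap, with siRpl11 lowest, the other knockdowns together and siNT highest. The falls were -1.26 ± 0.04 in siRpl11 (adjusted p = 1.72e-08), -0.57 ± 0.04 in siRpl14, -0.67 ± 0.04 in siRpl18 and -0.62 ± 0.04 in siRpl23 (adjusted p of 2.49e-06 or less). Slc7a1 was lower in siRpl11 than in the mean of the other knockdowns by -0.64 ± 0.04 (adjusted p = 2.45e-07).

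Slc7a3, a cationic amino acid transporter of narrower expression, was abundant in these cells and moved in opposite directions. Its levels were 133 and 138 FPKM in siRpl11, 71.1 and 71.6 in siRpl14, 69.1 and 72.6 in siRpl18, 67.7 and 70.2 in siRpl23, and 94.7 and 103 in siNT. The siRpl11 libraries were above both siNT libraries, and all libraries of the other knockdowns were below them. Slc7a3 rose by 0.45 ± 0.05 in siRpl11 (adjusted p = 2.31e-05) and fell in siRpl14 (-0.47 ± 0.05), siRpl18 (-0.48 ± 0.05) and siRpl23 (-0.51 ± 0.05), each with an adjusted p of 2.41e-05 or less. The difference between siRpl11 and the mean of the others was 0.93 ± 0.04 (adjusted p = 4.38e-08), the largest of the 9 genes. The third libraries gave 119 FPKM in siRpl11 and 59.3, 62.5 and 54.7 in siRpl14, siRpl18 and siRpl23, against 98.6 in siNT. Quantile normalization and median-ratio scaling left every one of these directions in place. The ratio of mean Slc7a3 to mean Slc7a1 FPKM was 10.5 in siRpl11, 3.33 in siRpl14, 3.56 in siRpl18 and 3.35 in siRpl23, against 3.07 in siNT.

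The small neutral amino acid exchangers fell in every knockdown. Slc1a5, which takes up glutamine, was at 10.6 and 11.3 FPKM in siRpl11, 14.4 and 13.6 in siRpl14, 14.2 and 15.2 in siRpl18, 15.3 and 14.6 in siRpl23, and 40.3 and 37.9 in siNT. Every knockdown library was far below siNT, and those of siRpl11 were lowest. The falls were -1.74 ± 0.06 in siRpl11 (adjusted p = 1.54e-08), -1.42 ± 0.06 in siRpl14, -1.35 ± 0.06 in siRpl18 and -1.33 ± 0.06 in siRpl23 (adjusted p of 5.32e-08 or less). On the linear scale 28.1%, 35.9%, 37.6% and 38.3% of the siNT level remained. More remained in the third libraries, at 37.8%, 44.9%, 55.9% and 52.8%, where siNT itself was at 29.2 FPKM. Slc1a5 was lower in siRpl11 than in the mean of the others by -0.38 ± 0.05 (adjusted p = 7.96e-05).

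Slc1a4, the related exchanger of alanine, serine, cysteine and threonine, was also lowest in siRpl11 and highest in siNT. It stood at 2.91 and 3.37 FPKM in siRpl11, 4.71 and 4.69 in siRpl14, 4.36 and 4.76 in siRpl18, 4.43 and 5.01 in siRpl23, and 9.94 and 10.5 in siNT. No knockdown library came near siNT. Its log2 fold changes were -1.44 ± 0.08 in siRpl11 (adjusted p = 2.62e-07), -0.98 ± 0.08 in siRpl14, -1.01 ± 0.08 in siRpl18 and -0.97 ± 0.08 in siRpl23. In the third libraries it was at 2.88 FPKM in siRpl11, 4.15 in siRpl14, 4.13 in siRpl18 and 4.51 in siRpl23, against 7.21 in siNT. The difference between siRpl11 and the others was -0.45 ± 0.07 (adjusted p = 0.000211), a call that ended with quantile normalization (-0.16). Of the 2 genes found with TGATGNAA letters in the promoter, Slc1a4 thus fell in every knockdown, and Slc7a11 was called in siRpl11 alone, by a small margin. Slc7a1 and Slc6a9, searched and without the letters, fell in every knockdown too, and Slc1a5 could not be searched.

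Slc6a9, the glycine transporter, was at 2.14 and 2.04 FPKM in siRpl11, 2.53 and 2.20 in siRpl14, 2.00 and 1.76 in siRpl18, 2.78 and 2.36 in siRpl23, and 4.86 and 4.66 in siNT. All knockdown libraries were below siNT, siRpl18 was lowest, siRpl11 lay just above it, and siRpl14 and siRpl23 overlapped. It fell by -0.90 ± 0.09 in siRpl11, -0.78 ± 0.09 in siRpl14, -1.0 ± 0.09 in siRpl18 and -0.69 ± 0.09 in siRpl23 (adjusted p from 5.53e-06 to 7.86e-05). In the third libraries siRpl11 was lowest at 1.46 FPKM, with 2.65, 2.63 and 2.59 FPKM in siRpl14, siRpl18 and siRpl23, against 3.74 in siNT. The difference between siRpl11 and the mean of the other knockdowns was -0.08 ± 0.07 with an interval of -0.24 to 0.09 (adjusted p = 0.389), and it was -0.56 in the third libraries. Exons of Slc6a9 overlap B4galt2 and Ccdc24 on the opposite strand in GENCODE M21, and whether counting used strand is not given in the sources used here, so reads of these genes may not be told apart. B4galt2 was at 2.01 ± 0.117 FPKM in siRpl11, 3.47 ± 0.454 in siRpl14, 2.49 ± 0.230 in siRpl18 and 2.99 ± 0.0232 in siRpl23, against 3.38 ± 0.0286 in siNT (SD, n = 2). Ccdc24 was at 0.0831 to 0.322 FPKM in the knockdowns, against 0.972 in siNT, as means of replicates 1 and 2. Their part in the Slc6a9 result was not tested.

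Slc38a2, the sodium-coupled transporter that rises when cells lack amino acids, rose in every knockdown. It was at 171 and 172 FPKM in siRpl11, 156 and 156 in siRpl14, 187 and 182 in siRpl18, 182 and 176 in siRpl23, and 77.3 and 78.0 in siNT. Every knockdown library was above siNT without overlap, and siRpl14 was the lowest of the knockdowns. The log2 fold changes were 1.13 ± 0.04 in siRpl11, 1.00 ± 0.04 in siRpl14, 1.24 ± 0.04 in siRpl18 and 1.19 ± 0.04 in siRpl23 (adjusted p from 3.05e-09 to 1.64e-08). The third libraries gave 196, 177, 207 and 191 FPKM in the same order of knockdowns, against 115 in siNT, and so a smaller ratio (171%, 154%, 180% and 167% of siNT, against 221%, 201%, 238% and 230% in the first table). Slc38a2 was higher in siRpl18 than in siRpl14 by 0.24 ± 0.04 (adjusted p = 0.00377), where 5.96% of all genes were higher and 8.3% lower (14.3% either way). Slc38a2 alone of the 9 genes was called in that comparison. The difference between siRpl11 and the mean of the others was -0.01 ± 0.03, with an interval of -0.08 to 0.06, and median-ratio scaling turned it to 0.14 (adjusted p = 0.0025). Slc38a2 made up 31.2% to 40.8% of the summed FPKM of the 9 genes in knockdown libraries of the first table, against 17.2% and 17.8% in siNT.

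**Figure D3:**
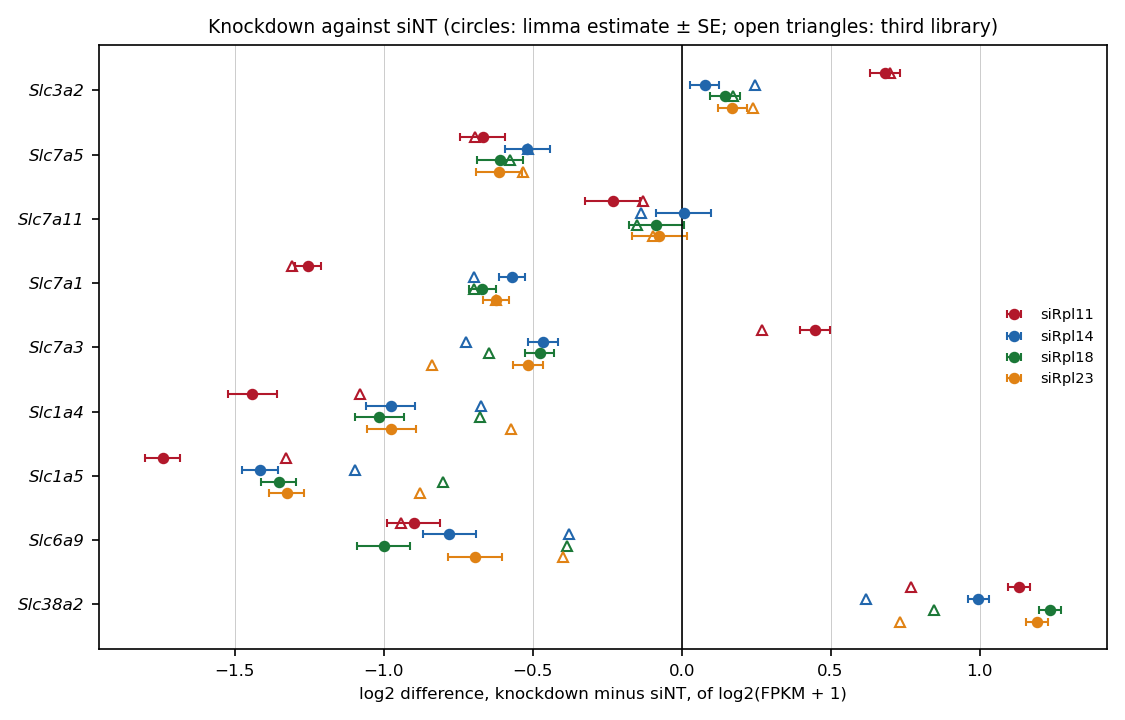
Circles give the limma log2 difference (knockdown minus siNT) ± SE of each gene in the 4 knockdowns, and open triangles the same difference within the third libraries, which was not tested. Slc1a5 has the largest falls, down to -1.74 in siRpl11, the circles of Slc38a2 lie near 1 in all knockdowns, and Slc7a3 lies on both sides of 0.

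Between knockdowns, most calls involved siRpl11, among the 9 genes as over all genes. Against the mean of siRpl14, siRpl18 and siRpl23, 18.4% of all genes were higher and 44.2% lower in siRpl11 (62.6% either way). Of the 9 genes, Slc3a2 and Slc7a3 were higher and Slc7a1, Slc1a4 and Slc1a5 lower in that comparison, and the other 4 genes were not called. Each of these 4 was called under 1 alternative: Slc7a5 with the replicate block, Slc7a11 without siRpl23 replicate 1 (-0.21, adjusted p = 0.0332), Slc38a2 with median-ratio scaling (0.14) and Slc6a9, with its sign reversed, with quantile normalization (0.23). Over all genes 29.3% of the calls in that comparison were higher, against 56.8% with quantile normalization and 50.8% with median-ratio scaling, and the median of all genes was -0.12, 0.05 and 0.01 in these fits. Among siRpl14, siRpl18 and siRpl23 themselves, siRpl18 against siRpl14 gave 1 call of the 9, where 14.3% of all genes were called either way. For siRpl18 against siRpl23 there were 0 calls of the 9 with limma (1 at an unadjusted p under 0.05, Slc6a9 at -0.31 ± 0.09), where 1.07% of all genes were higher and 2.44% lower (3.51% either way). For siRpl23 against siRpl14 there were 0 calls with limma (1 at an unadjusted p under 0.05, Slc38a2 at 0.20 ± 0.04), where 0.416% of all genes were higher and 0.098% lower (0.514% either way). With the replicate block these 2 genes were called. The order of group means in the first table had siRpl11 lowest and siNT highest for Slc7a5, Slc7a1, Slc1a4 and Slc1a5, and no difference among the other 3 knockdowns was called for these genes. Slc3a2 ran the other way, with siNT lowest and siRpl11 highest, and Slc7a3 had siRpl11 highest, siNT next and the other knockdowns together. Slc38a2 ran siNT, siRpl14, siRpl11, siRpl23 and siRpl18 upward, and of its neighbouring knockdowns none was tested but siRpl18 against siRpl23 (0.05 ± 0.04, not called).

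**Figure D4:**
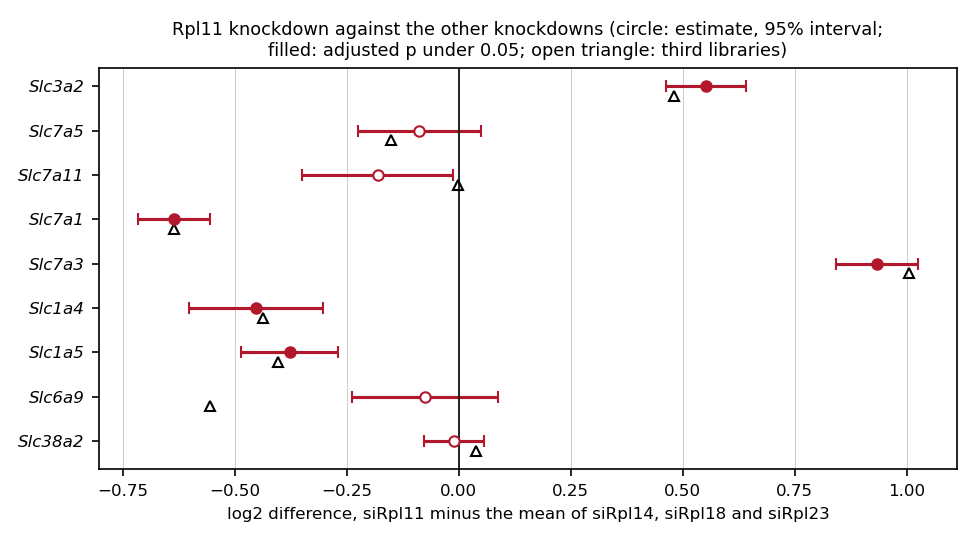
Log2 difference between siRpl11 and the mean of the other 3 knockdowns for each gene, with its 95% interval, and the same difference in the third libraries as an open triangle. Slc3a2 (0.55) and Slc7a3 (0.93) lie to the right of 0, and Slc7a1 (-0.64), Slc1a4 (-0.45) and Slc1a5 (-0.38) to the left.

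The list of other plasma membrane amino acid transporters held more genes called lower than higher. Where each listed protein sits in the cell was not checked, and some may act at internal membranes. Of 38 further genes fixed as a list, 16 passed the filter on low values and were tested. Of these, 9 were lower and 2 higher in siRpl11, 10 and 2 in siRpl14, 8 and 2 in siRpl18, and 8 and 2 in siRpl23. Over all genes the shares lower and higher were 43.6% and 27.3% in siRpl11, 29.5% and 33.3% in siRpl14, 34.7% and 32.8% in siRpl18, and 30.8% and 34.9% in siRpl23. The medians of the 16 genes were -0.29, -0.23, -0.29 and -0.17 on the log2 scale in that order, against -0.11, 0.02, -0.02 and 0.02 for all genes. The genes called higher were Slc7a7 and Slc43a2 in each knockdown. In siRpl11 quantile normalization called 4 of the list higher and median-ratio scaling 5. Without the filter 5 were higher in siRpl14, and 14 were lower in siRpl11 and 13 in siRpl18. Slc43a2, a facilitative transporter of branched-chain amino acids and phenylalanine, was at 5.26 and 5.17 FPKM in siRpl11, 8.11 and 8.35 in siRpl14, 7.24 and 7.37 in siRpl18, 7.52 and 7.59 in siRpl23, and 2.56 and 2.06 in siNT. It rose by 0.91 ± 0.08, 1.48 ± 0.08, 1.33 ± 0.08 and 1.37 ± 0.08 in that order (adjusted p from 1.51e-07 to 3.18e-06). Slc38a10, a relative of Slc38a2, fell by -0.94 ± 0.05 in siRpl11 and by -0.62 ± 0.05 to -0.73 ± 0.05 in the others. Slc1a1, a glutamate and cysteine transporter, fell by -0.91 ± 0.10 in siRpl11 and by -0.43 ± 0.10 to -0.67 ± 0.10 in the others. Slc38a3, a glutamine transporter, fell in siRpl11 (-0.86 ± 0.09) and was not called in the other knockdowns (-0.16, -0.13 and -0.01), and it was lower in siRpl11 than in their mean by -0.76 ± 0.07 (adjusted p = 1.08e-05). In the third libraries Slc38a3 was at 1.31, 3.79, 2.34 and 3.97 FPKM in siRpl11, siRpl14, siRpl18 and siRpl23, against 2.20 in siNT, so only siRpl11 lay below siNT.

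**Figure D5:**
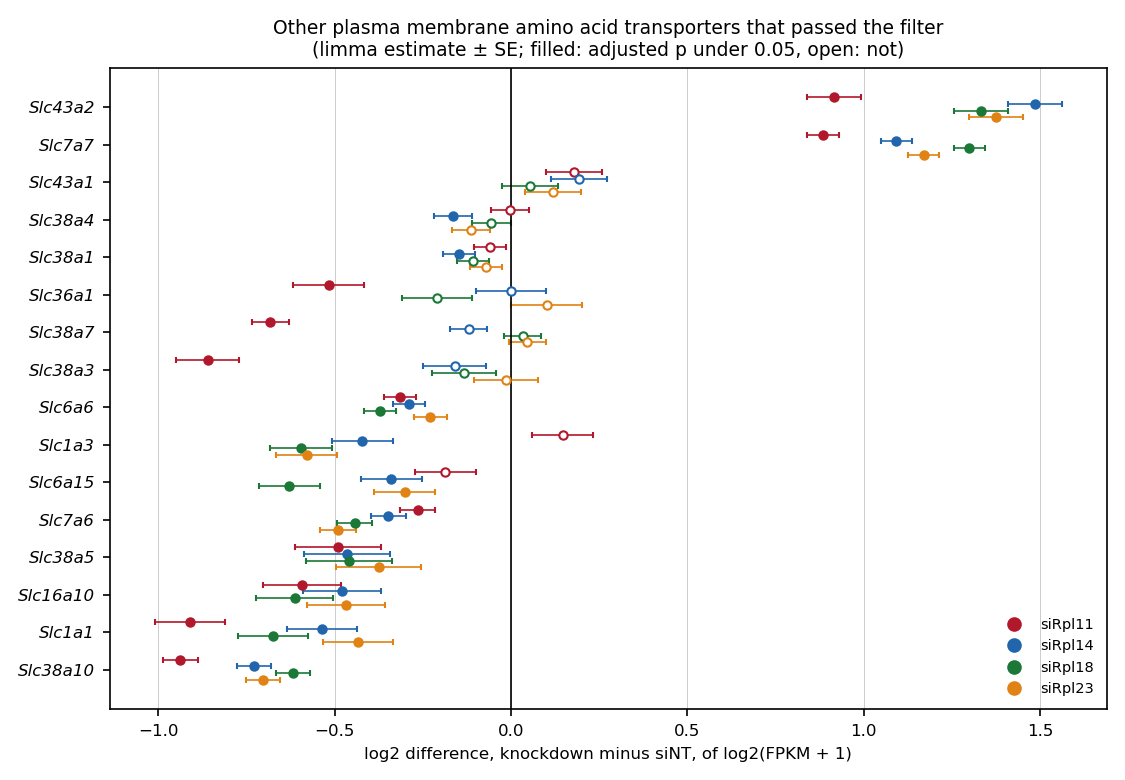
Log2 differences (knockdown minus siNT, ± SE) of the 16 genes listed as other plasma membrane amino acid transporters that passed the filter, filled where the adjusted p was under 0.05. Slc43a2 and Slc7a7 lie to the right in all 4 knockdowns, and Slc38a10 has the lowest mean of the 16.

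Carriers listed for internal membranes went both ways. Of 14 lysosomal and mitochondrial carriers 10 were tested, with 4 higher and 3 lower in siRpl11, 6 and 2 in siRpl14, 3 and 2 in siRpl18, and 7 and 2 in siRpl23. Over all genes 27.3%, 33.3%, 32.8% and 34.9% were higher and 43.6%, 29.5%, 34.7% and 30.8% lower. Without siNT replicate 2 the higher count was 3 in siRpl14 and 4 in siRpl23, and it was also 4 in siRpl23 without siRpl23 replicate 1. Slc25a13, the mitochondrial aspartate-glutamate carrier, fell by -0.77 ± 0.05, -0.39 ± 0.05, -0.65 ± 0.05 and -0.50 ± 0.05 in siRpl11, siRpl14, siRpl18 and siRpl23. Slc25a15, the ornithine carrier, fell by -0.55 ± 0.06, -0.40 ± 0.06, -0.48 ± 0.06 and -0.43 ± 0.06 in the same order. Slc25a44, which brings branched-chain amino acids into mitochondria, rose by 0.30 ± 0.06, 0.76 ± 0.06, 0.91 ± 0.06 and 0.80 ± 0.06, and in the third libraries siRpl11 differed from siNT by only 0.01. Ctns, the lysosomal cystine exporter, rose in siRpl14 (0.72 ± 0.08), siRpl18 (0.45 ± 0.08) and siRpl23 (0.66 ± 0.08) and was not called in siRpl11 (0.13 ± 0.08), and siRpl11 was below the mean of the others by -0.49 ± 0.06 (adjusted p = 7.38e-05). Slc25a38, a mitochondrial glycine importer, rose by 0.48 ± 0.06, 0.40 ± 0.06, 0.49 ± 0.06 and 0.48 ± 0.06 in siRpl11, siRpl14, siRpl18 and siRpl23.

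Regulators and partners of the ATF4 response were described beside the transporters. Of 17 genes, 12 were lower and 2 higher in siRpl11, 8 and 7 in siRpl14, 6 and 8 in siRpl18, and 8 and 6 in siRpl23, beside 43.6%, 29.5%, 34.7% and 30.8% of all genes lower and 27.3%, 33.3%, 32.8% and 34.9% higher. The counts of 6 lower and 8 higher in siRpl18 lie closer to those shares than the counts in siRpl11. Atf4 itself was at 156 and 157 FPKM in siRpl11, 148 and 158 in siRpl14, 190 and 192 in siRpl18, and 171 and 171 in siRpl23, against 191 and 194 in siNT. It fell in siRpl11 (-0.30 ± 0.04), siRpl14 (-0.33 ± 0.04) and siRpl23 (-0.17 ± 0.04) and was not called in siRpl18 (-0.01 ± 0.04), and in the third libraries it was at 132, 135, 164 and 149 FPKM in siRpl11, siRpl14, siRpl18 and siRpl23, against 142 in siNT. Asns, asparagine synthetase, fell by -1.78 ± 0.06, -1.10 ± 0.06, -1.42 ± 0.06 and -1.19 ± 0.06 in siRpl11, siRpl14, siRpl18 and siRpl23. Chac1, which degrades glutathione, fell by -1.96 ± 0.09, -1.80 ± 0.09, -1.85 ± 0.09 and -1.93 ± 0.09. Atf3, a stress-induced transcription factor, fell in siRpl11 (-0.42 ± 0.13) and rose in siRpl14 (0.93 ± 0.13), siRpl18 (1.49 ± 0.13) and siRpl23 (1.47 ± 0.13), with a difference between siRpl11 and the mean of these of -1.72 ± 0.11 (adjusted p = 4.32e-07). Ppp1r15a, a phosphatase subunit that reverses the stress signal on eIF2, rose by 0.73 ± 0.05 to 1.16 ± 0.05. Nupr1, a small stress-induced nuclear protein, was at 8.13 and 9.19 FPKM in siRpl11, 6.66 and 8.47 in siRpl14, 7.76 and 9.50 in siRpl18, and 6.27 and 8.16 in siRpl23, against 56.6 and 57.6 in siNT. Ddit3, a proapoptotic factor of the stress response, fell in siRpl11 (-0.23 ± 0.08) and rose in siRpl14 (0.44 ± 0.08), siRpl18 (1.01 ± 0.08) and siRpl23 (0.62 ± 0.08). In the third libraries Ddit3 was above siNT in every knockdown, siRpl11 included, at 20.5 FPKM in siRpl11, 40.2 in siRpl14, 50.7 in siRpl18 and 45.2 in siRpl23, against 14.4 in siNT. The letters TGATGNAA are also in the promoter windows of Asns and Chac1, beside 3.97% of all promoter windows. No other gene of this list was looked up for the letters, so nothing is read about the list from them.

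Of 12 cystine and glutathione genes, 7 were lower and 3 higher in siRpl11, 5 and 1 in siRpl14, 6 and 2 in siRpl18, and 4 and 3 in siRpl23, beside the shares of all genes given for the ATF4 list. The lower count in siRpl14 was 1 to 3 without either siNT library or either siRpl14 library, and that in siRpl18 was 3 without siNT replicate 2 or siRpl18 replicate 1. Gpx1, a glutathione peroxidase, rose by 0.49 ± 0.05, 0.71 ± 0.05, 0.74 ± 0.05 and 0.79 ± 0.05 in siRpl11, siRpl14, siRpl18 and siRpl23 of the first table. The third libraries differed from siNT by only -0.19, 0.05, 0.05 and 0.15 in that order, with siRpl11 in the opposite direction. Cth, which makes cysteine from cystathionine, fell by -0.37 ± 0.05, -0.62 ± 0.05, -0.85 ± 0.05 and -0.74 ± 0.05, and the third libraries gave 0.03 in siRpl11 and -0.27, -0.57 and -0.37 in the others. Cbs, the enzyme before it, fell in siRpl11 (-1.11 ± 0.07) and siRpl23 (-0.20 ± 0.07) and was not called in siRpl14 or siRpl18 (-0.13 in both), and it was lower in siRpl11 than in the mean of the others by -0.96 ± 0.05 (adjusted p = 2.7e-07). Cbs in the third libraries was -0.79 from siNT in siRpl11 and above siNT in the other knockdowns (0.33, 0.06 and 0.09).

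The genes whose 4 log2 fold changes were nearest to those of a transporter were found by the root mean square difference over the 4 knockdowns. They were sought among 7027 genes that reached 10 FPKM, with the 9 transporter genes themselves left out. For Slc7a1 they were Csnk1e (0.02), Galnt2 (0.04) and Tfeb (0.05). For Slc1a4 they were Bcl3 (0.01), Neil2 (0.06) and Ppm1j (0.06), for Slc1a5 Ccng2 (0.06), Cyp2s1 (0.06) and Mir124a-1hg (0.08), and for Slc38a2 Mob4 (0.07), Zbtb2 (0.08) and Rchy1 (0.10). None of these belongs to the lists of other plasma membrane transporters or of internal carriers. Those lists make up only a small part of the 7027 genes, so nothing is read from that. Whether the 9 genes lay near each other was not asked, since they could not appear here.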

How the data were processed

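Polyadenylated RNA of 15 libraries was sequenced, and the kit keeps strand, per the labels' protocols. Per the submitters' processing notes, the authors used STAR and Cuffnorm with build mm9 to make the deposited FPKM values; no version, annotation or setting is given in the sources used here. The first table also has 2 columns that match no sample here, which were not used. Absolute depth is unknown, so no counting interval is given, and relative depth came from the commonest ratio of low values between libraries.

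log2(FPKM + 1) of the 10 libraries of the first table was fitted in limma 3.58.1 (R 4.3.3) with 1 term per group, 5 residual degrees of freedom and a trended eBayes prior. The code was tested on simulated data. Across genes, replicates 1 and 2 had a Pearson r of 0.991 to 0.996, and all were kept as separate libraries. The alternatives were a pseudocount of 0.1, no filter, quantile normalization, median-ratio scaling, a replicate block, all 15 libraries with the table as a block, only the groups compared, and each library left out.

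The 9 genes and all lists were chosen with earlier results of these data known. From each companion list a gene could be named if it was among the 3 largest rises or the 3 largest falls called in any knockdown, and its values in the other knockdowns were then given too. Atf4 and the genes overlapping Slc6a9 were added, and the named genes chosen among those eligible, after values were seen. Nearest genes were sought for transporters with a change of 1 or more. Promoters are from RefSeq on GRCm38.p6, another build than that of the values.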

Additional observations from a re-analysis of the deposited data

Results flagged for a closer look

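Slc7a3 was singled out because it changed in opposite directions between knockdowns, with a tested difference. It was higher in siRpl11 than in the mean of siRpl14, siRpl18 and siRpl23 by 0.9342 on the log2 scale (limma adjusted p = 4.38e-08), higher than siNT in both siRpl11 libraries and lower than siNT in all 6 libraries of the other knockdowns of the first table. The third libraries gave 1.01 for the same difference. Over the alternatives the difference ranged from 0.91 to 1.08.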

How the results depend on the processing

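Of the alternative values for called differences of the 9 genes from siNT, 527 kept direction and call, 16 kept direction and lost the call, and 1 reversed (Slc7a11 in siRpl11, 0.056 with quantile normalization). No filter, the replicate block, only the groups compared, and leaving out a library of another group cannot change a difference itself. They change only its spread and adjusted p, so part of the 527 kept direction by design. The design has 2 libraries per group, depth is unknown, and the third libraries could be tested only with the table as a block. The cause of the changes below was not tested, except that "no filter" adds low genes and that leaving out a library or a group lowers the number of samples. Other uncalled values that changed sign with quantile normalization were, for Slc7a11, -0.022 in siRpl14, 0.12 in siRpl11 against the other knockdowns and 0.030 in siRpl18 against siRpl23. In siRpl18 against siRpl23, quantile normalization gave -0.0023 for Slc7a5, 0.0074 for Slc1a4 and 0.010 for Slc1a5, and it gave 0.017 for Slc1a4 in siRpl18 against siRpl14. For Slc6a9 in siRpl11 against the others it gave 0.23, which was called (adjusted p = 0.0128). Median-ratio scaling turned Slc7a11 to -0.0079 in siRpl14 and 0.014 in siRpl18 against siRpl23, Slc7a5 to 0.058, Slc6a9 to 0.027 and Slc38a2 to 0.14 in siRpl11 against the others, Slc3a2 to 0.012 and Slc1a5 to 0.0092 in siRpl18 against siRpl23, and Slc7a3 to 0.028 in siRpl18 against siRpl14. All 15 libraries turned Slc7a11 to -0.041 in siRpl14, Slc38a2 to 0.0060 in siRpl11 against the others, Slc7a3 to 0.018 in siRpl18 against siRpl14, and Slc7a5 to -0.012 and Slc1a5 to 0.0085 in siRpl18 against siRpl23.

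Counts moved by over 1.5 times as follows. Without the filter, other plasma membrane transporters were lower 14 times in siRpl11 and 13 in siRpl18 and higher 5 times in siRpl14, and internal carriers were lower 6, 5, 4 and 4 times in siRpl11, siRpl14, siRpl18 and siRpl23. Quantile normalization called 4 other transporters higher in siRpl11, 2 glutathione genes higher in siRpl14 and 7 lower in siRpl23. Median-ratio scaling called 5 other transporters and 5 glutathione genes higher in siRpl11 and 5 internal carriers higher in siRpl18. All 15 libraries called 2 of the 9 genes higher and 3 glutathione genes lower in siRpl14, 6 internal carriers higher in siRpl18 and 2 glutathione genes lower in siRpl23. With only the groups compared, 1 of the 9 genes and 1 glutathione gene were higher in siRpl18. Over all genes, siRpl18 against siRpl14 gave 988 calls with only the groups compared, against 1747; the share of higher calls was 41.8%, against 51.2% with quantile normalization and 59.2% with median-ratio scaling. For siRpl18 against siRpl23 there were 430 calls, and 267 without the filter and 66 with only the groups compared; 30.5% were higher, against 45.6% and 55.5% with the 2 scalings. For siRpl23 against siRpl14 there were 63 calls, with 35 at a pseudocount of 0.1, 23 without the filter and 11 with only the groups compared.

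Deviations of same-numbered libraries correlated by -0.09 to 0.20 over 10 pairs of groups and by over 0.1 in 5 of them; the labels do not tie the numbers to a shared batch, and whether they carry one is not settled. The replicate block gave 5 internal carriers higher in siRpl18, 986 genes and 1 of the 9 (Slc6a9, lower) in siRpl18 against siRpl23, and 240 genes and 1 of the 9 (Slc38a2, higher) in siRpl23 against siRpl14, and it called Slc7a5 in siRpl11 against the others (adjusted p = 0.0392).

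Leaving out each library in turn gave these ranges. Of the 9 genes, 1 to 2 were higher in siRpl18 and 1 to 2 in siRpl23; the value was 1 without siNT replicate 2, and without siRpl18 replicate 2 or siRpl23 replicate 1 in its own comparison. Internal carriers were higher 3 to 6 times in siRpl14 and 4 to 7 in siRpl23. Glutathione genes were higher 1 to 2 times in siRpl14, 1 to 2 in siRpl18 and 1 to 3 in siRpl23, and lower 1 to 5 times in siRpl14 and 3 to 7 in siRpl18. Over all genes the calls ran from 616 to 1718 in siRpl18 against siRpl14, 71 to 391 in siRpl18 against siRpl23, and 2 to 46 in siRpl23 against siRpl14. Values that changed sign were Slc7a11 in siRpl14 (-0.050 to 0.064), siRpl23 (-0.17 to 0.015), siRpl18 against siRpl23 (-0.10 to 0.081) and siRpl23 against siRpl14 (-0.17 to 0.0077). In siRpl18 against siRpl23 the ranges were -0.039 to 0.046 for Slc7a5, -0.069 to 0.018 for Slc3a2, -0.11 to 0.034 for Slc1a4 and -0.075 to 0.022 for Slc1a5. In siRpl18 against siRpl14 they were -0.046 to 0.024 for Slc7a3 and -0.091 to 0.015 for Slc1a4, and Slc1a4 ran from -0.071 to 0.076 in siRpl23 against siRpl14.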

Other observations

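Between the tables, levels in siNT differed for some of the 9 genes. The third siNT library over the mean of the first table's siNT libraries gave a ratio of 0.0796 for Slc7a11, and of 0.705 (Slc1a4) to 1.48 (Slc38a2) for the other 8, beside a median of 0.962 over 11616 genes. The tables were normalized separately, and the cause was not tested.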
